A study of Mus musculus with 2 samples.

Results

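Smooth muscle type contractile genes encode the actin, myosin and actin-binding proteins with which smooth muscle, pericytes, myofibroblasts and the dermal sheath around the hair follicle contract. Here they were compared between 2 cell populations sorted from mouse hair follicles. The 10 genes were Acta2, Actg2, Tagln, Myl9, Cnn1, Cnn2, Tpm1, Tpm2, Cald1 and Myh11, out of 18193 genes that the array names through a probe set of 1 gene. All of their 23 probe sets are described, since a probe set was included wherever the platform annotation gives a listed symbol alone. The cells came from the back skin of CD-1 pups at postnatal day 4. All pups carried both K14-RFP, a red reporter under the keratin 14 promoter of basal keratinocytes, and Sox9-EGFP, a green reporter for the stem cell transcription factor Sox9. The early bulge population was bright for both reporters, and the non-bulge outer root sheath (ORS) population was bright for red and negative for green. They are called the bulge sort and the ORS sort below. Follicles had been spun away from dermal cells at low speed before sorting, and the gates left out dead cells and large cells with signs of differentiation. RNA of each population was hybridised to 1 Affymetrix array, the labels do not say how many pups were pooled, and no difference below has a replicate check or a p-value.

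Contractile filaments of smooth muscle are built from thin filaments of actin and thick filaments of myosin II. The smooth muscle isoforms are switched on together in contractile cells by serum response factor (Srf) and its partners myocardin and the myocardin-related factors, which act through a promoter element called the CArG box. Most other cells, keratinocytes included, run their cytoskeleton on non-muscle isoforms of the same families. In skin, Acta2 is a classical marker of the dermal sheath, of vascular mural cells and of the arrector pili muscle.

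The signal of a probe set is given on the linear MAS5 scale. A signal under 57.8, the 40th percentile of all signals, was treated as not measured and set to that floor in ratios, so a ratio with 1 array under the floor is a lower bound and is written as "at least". Ratios are early bulge over ORS, so a negative log2 ratio means a higher signal in the ORS sort. Across the 2 arrays, 62.0% of non-control probe sets in the bulge sort and 58.0% in the ORS sort reached the floor. The gate checked the labels: Sox9 gave 4061 in the bulge sort and 676 in the ORS sort, and its other probe sets were also higher in the former. Krt14, which both gates select for, gave 14706 and 6609, and its other probe sets gave 15680 and 4705 and 1086 and 201.

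With each gene at its brightest probe set, Acta2, Tagln and Myl9 had far higher signals in the ORS sort. Cnn2, Tpm2 and Cald1 were nearly equal in both, and no member was 2-fold higher in the bulge sort. A dimmer Cald1 probe set was 2.57-fold higher in the bulge sort. All 10 members were measured on at least 1 array. Acta2, Actg2, Tagln, Myl9, Cnn1 and Tpm1, 6 of the 10, were at least 2-fold higher in the ORS sort. The remaining 4 members, Cnn2, Tpm2, Cald1 and Myh11, gave ratios or bounds of less than 2-fold. Of all 13252 measured genes, 4.78% were at least 2-fold higher in the ORS sort and 7.3% in the bulge sort. Actg2 and Cnn1 counted as measured only through their signal in the ORS sort. With both arrays required to reach the floor, 4 of 7 members passed 2-fold towards the ORS sort, against 4.35% of all genes so measured. After median centring of the arrays, the early bulge share of all 2-fold calls was 40.9% in place of 60.4%, and the median of all genes moved from 0.04 to -0.17. The median log2 ratio of the 10 members was -1.22, with the 3 bounds taken at their value. At 4-fold, Acta2, Tagln and Myl9 were called, 3 of 10 members, against 1.32% of all measured genes. In bulk RNA, fewer cells of a type and less RNA per cell cannot be told apart.

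**Figure D1:**
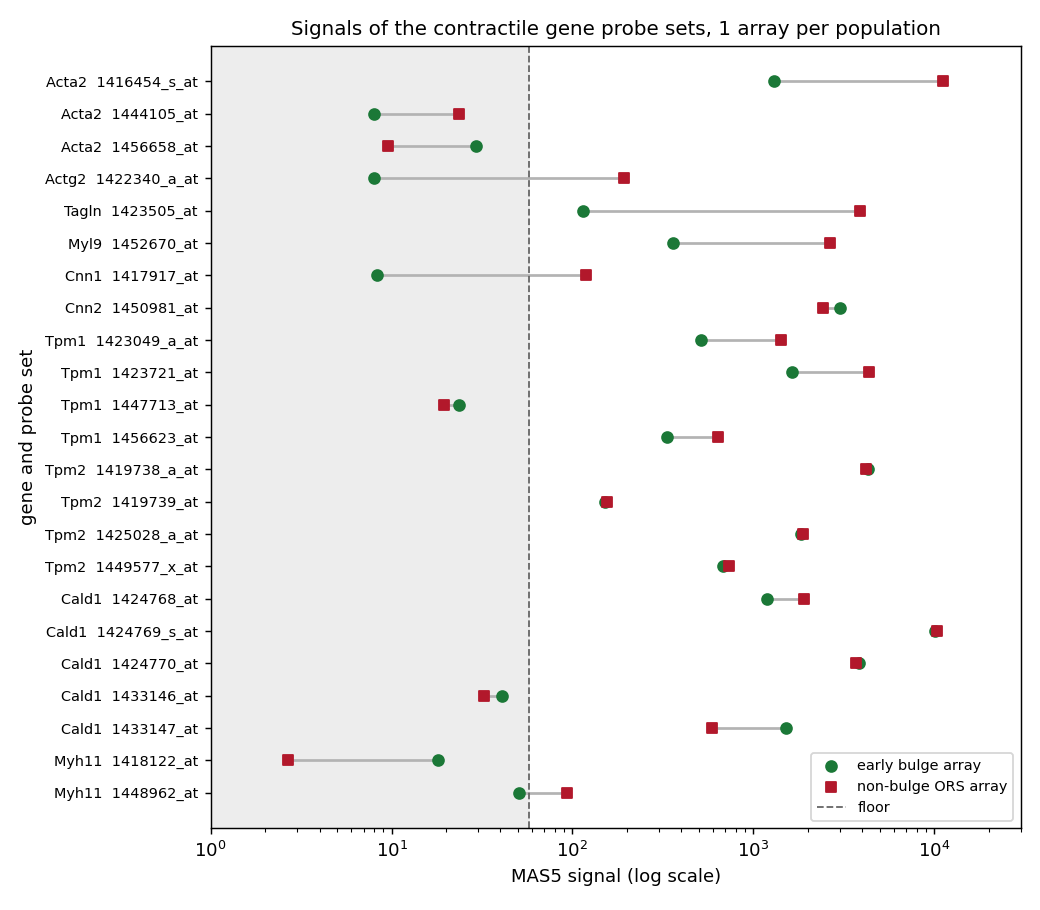
MAS5 signal (log scale) of each of the 23 probe sets of the contractile genes in the bulge sort (green circles) and the ORS sort (red squares), with the floor of 57.8 as a dashed line and signals under it shaded. The red squares lie far to the right for Acta2, Tagln, Myl9, Actg2 and Cnn1 and on top of the green circles for the 4 Tpm2 probe sets.

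The actins form the thin filament. Acta2, alpha smooth muscle actin, gave 1299 in the bulge sort and 11143 in the ORS sort. That is an 8.58-fold higher signal in the ORS sort, and 0.355% of all measured genes, bounds at their value, lay as far or further in that direction. Its signal was therefore well above the floor on both arrays. Which cells of the bulge sort gave that signal was not tested. The probe set carries the suffix _s, which Affymetrix gives where probes match several transcripts, and whether related actins contribute was not tested. Both further Acta2 probe sets were under the floor on both arrays, at 8.01 and 23.5 for the first and at 29.2 and 9.54 for the second, so the Acta2 difference rests on 1 probe set. Actg2, gamma smooth muscle actin of gut and other visceral muscle, gave 8.02 in the bulge sort and 192 in the ORS sort. Its signal was at least 3.33-fold higher in the ORS sort, and only there above the floor.

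Tagln encodes transgelin, an actin-binding protein that marks early smooth muscle differentiation. It gave 114 in the bulge sort and 3889 in the ORS sort. This 34.1-fold difference (log2 ratio -5.09) ranked 1 towards the ORS sort among the 11534 genes above the floor on both arrays, each at its brightest probe set. Genes with a bound, such as Pdgfra (11.3 and 738), have no place in that order. Neither have dimmer probe sets, such as one of Col3a1 with a log2 ratio or bound of -5.26. Unlike Actg2, Tagln was above the floor on both arrays, so its ratio is measured and not a bound. Only 1 probe set reports it.

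The calponins bind actin and slow its sliding over myosin, and their members did not behave alike. Cnn1, the smooth muscle calponin, gave 8.29 in the bulge sort and 118 in the ORS sort, at least 2.05-fold higher there. Cnn2, the more widely expressed calponin, gave 3029.7 in the bulge sort and 2437 in the ORS sort, a log2 ratio of 0.31. Cnn1 counted as measured only through its signal in the ORS sort.

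Tropomyosins are coiled coils that lie along the actin filament and control access of myosin and other proteins to it. The brightest probe set of Tpm1 gave 1644 in the bulge sort and 4354 in the ORS sort, 2.65-fold higher there. A second probe set gave 515 and 1424, with a log2 ratio of -1.47, and another 335 and 635, with a log2 ratio of -0.92. These 3 probe sets had the same direction, and the remaining one was under the floor on both arrays (23.6 and 19.6). Tpm2, whose product is abundant in smooth and slow skeletal muscle but not limited to them, showed no such difference. Its 4 probe sets gave 4297.5 and 4174, 1838 and 1875, 676 and 731, and 151 and 155 in the bulge and the ORS sort. The log2 ratios of Tpm2 ran only from -0.11 to 0.04, so its probe sets were close to equality over a wide range of brightness.

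Cald1 encodes caldesmon, which inhibits the myosin ATPase on the thin filament and occurs as a long smooth muscle form and a short form of other cells. Its brightest probe set gave 10089 in the bulge sort and 10412 in the ORS sort, and the next brightest 3859 and 3717. Both pairs are nearly equal. A further probe set gave 1196 and 1898, higher in the ORS sort with a log2 ratio of -0.67, while another gave 1519 and 592, 2.57-fold higher in the bulge sort. The measured probe sets of Cald1 therefore spanned 2.03 on the log2 scale, in both directions, more than those of Tpm1 (0.55) or Tpm2 (0.16). Which transcript forms these probe sets report was not analysed here. The last probe set, 40.9 and 32.4, was under the floor on both arrays.

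Myl9 and Myh11 belong to the thick filament. Myl9, the regulatory light chain of smooth muscle myosin II, gave 359 in the bulge sort and 2649 in the ORS sort, a 7.38-fold higher signal. Myh11, the smooth muscle myosin heavy chain and the most specific marker of mature smooth muscle among the 10, was near the floor. It gave 50.9 in the bulge sort and 92.9 in the ORS sort, at least 1.61-fold higher there. Its other probe set was under the floor on both arrays, at 18.1 and 2.68.

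**Figure D2:**
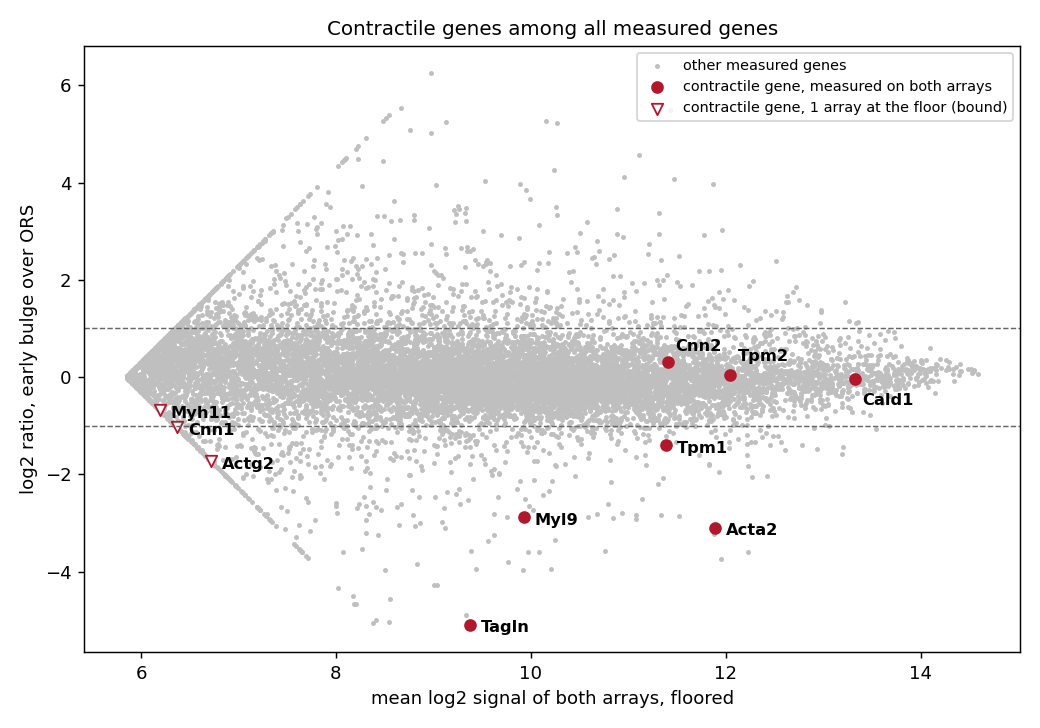
Log2 ratio of early bulge over ORS against the mean log2 signal of both arrays for all 13252 measured genes (grey), with contractile genes measured on both arrays as red dots and those with 1 array at the floor as open triangles, whose true ratio may lie further down. Dashed lines mark 2-fold. With each gene at its brightest probe set, Tagln has the lowest ratio of the genes above the floor on both arrays (-5.09), while Cnn2, Tpm2 and Cald1 lie near 0.

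Technical spread was read from genes with several probe sets, and is no replicate error. Over 14419 probe sets of 5312 genes measured on both arrays, the log2 ratios of probe sets of one gene had an SD of 0.36. The log2 ratios of Tagln, Acta2, Myl9 and Tpm1 exceeded 3 times that SD. Those of Cnn2 (0.31), Tpm2 (0.04) and Cald1 (-0.05) were smaller than it, and those of Tpm2 and Cald1 changed sign under other settings. Of the 18 measured probe sets of the members, 7 passed 2-fold towards the ORS sort, 1 (of Cald1) passed it towards the bulge sort and 10 did not pass it. Over all measured probe sets of a single gene, 4.44% passed it towards the ORS sort and 6.75% towards the bulge sort. For 7 of the 10 members only 1 probe set was measured. The calls of Actg2 and Cnn1 depend on the floor: with the floor at the 60th percentile the bound of Actg2 was -0.16 and Cnn1 was not measured.

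Promoter sequences of 7 members were found in the RefSeq table (GRCm38.p6), as 8 windows from 250 bases before to 50 bases after an annotated start. No window was found for Tagln, Actg2 and Myh11, so the member with the largest ratio is absent here. Sequences are shown for Acta2 and Myl9, which were far higher in the ORS sort, and for Cnn2, which was not. These hold CArG boxes or close matches, as do Tpm1 and Cald1, whose windows are not shown. Capitals mark a CArG box, which is the CC and GG pair around 6 letters of A or T, or a match with at most 1 letter off. The windows are chr19:34255324-34255623 on the minus strand for Acta2, chr2:156775214-156775513 on the plus strand for Myl9 and chr10:79988350-79988649 on the plus strand for Cnn2.
Acta2: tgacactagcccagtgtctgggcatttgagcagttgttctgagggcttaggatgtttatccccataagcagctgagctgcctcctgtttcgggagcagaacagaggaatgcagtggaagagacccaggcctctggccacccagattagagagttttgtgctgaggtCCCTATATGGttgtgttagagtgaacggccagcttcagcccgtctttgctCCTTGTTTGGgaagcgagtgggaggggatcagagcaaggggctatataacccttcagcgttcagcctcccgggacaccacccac
Myl9: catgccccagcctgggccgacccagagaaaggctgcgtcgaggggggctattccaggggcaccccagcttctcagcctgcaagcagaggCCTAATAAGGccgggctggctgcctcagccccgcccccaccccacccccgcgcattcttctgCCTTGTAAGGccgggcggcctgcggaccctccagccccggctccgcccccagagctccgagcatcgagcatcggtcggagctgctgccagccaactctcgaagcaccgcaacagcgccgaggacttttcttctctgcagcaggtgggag
Cnn2: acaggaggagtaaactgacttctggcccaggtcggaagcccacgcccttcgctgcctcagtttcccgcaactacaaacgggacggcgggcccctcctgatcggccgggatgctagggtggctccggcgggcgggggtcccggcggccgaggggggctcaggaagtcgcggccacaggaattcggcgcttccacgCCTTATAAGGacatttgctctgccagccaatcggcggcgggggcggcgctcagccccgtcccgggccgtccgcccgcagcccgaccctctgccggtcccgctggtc
Myl9 and Cnn2 hold an exact CArG box each, CCTAATAAGG from 161 bases before the start of Myl9 and CCTTATAAGG from 56 bases before the start of Cnn2. The pattern is its own reverse complement, so 1 search covers both strands. Of all 32851 windows in the table, 1.63% hold one. Acta2 holds no exact box but has CCCTATATGG from 84 and CCTTGTTTGG from 34 bases before the start, each 1 letter off, and Myl9 has CCTTGTAAGG from 99 bases before. Such near matches or exact boxes occur in 21.1% of all windows, and in those of 5 of the 7 members (Acta2, Myl9, Cnn2, Tpm1 and Cald1). Neither the window of Cnn1, which was higher in the ORS sort, nor that of Tpm2 holds one. A further window of Cald1 holds none either. An exact box thus stood in the window of a member with a large ratio and in that of a member with a small one. The letters CATTCC, the core of the element bound by Tead factors, occur on either strand in the windows of Acta2, Tpm1 and Cald1 and in 14.7% of all windows. A match in these windows is a description of letters and not a measured site.

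Relatives of the members in the same families were compared next, most of them non-muscle isoforms. The cytoplasmic actins Actb (14470 and 12330, log2 ratio 0.23) and Actg1 (23682 and 19781, log2 ratio 0.26) had slightly higher signals in the bulge sort under all 4 scalings. Acta1 and Actc1, the skeletal and cardiac actins, were dim on both arrays, at 85.5 and 86.8 and at 66.2 and 98.7. The transgelin of non-muscle cells, Tagln2, had a log2 ratio of 0.06 (-0.15 after median centring), against -5.09 for Tagln. Another Tagln2 probe set gave -0.35. Tagln3, the neuronal form, was under the floor on both arrays. Among light chains, the broadly expressed Myl12a (log2 ratio -0.12), Myl12b (0.39) and Myl6 (0.67) did not show the difference seen for Myl9. Tpm3 and Tpm4 had log2 ratios of -0.38 and -0.03 on their brightest probe sets. A dimmer Tpm3 probe set gave 176 in the bulge sort and 434 in the ORS sort, a log2 ratio of -1.30.

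Of 16 measured genes among the non-muscle and paralogous isoforms, 2 were at least 2-fold higher in the ORS sort and none in the bulge sort. The shares of all measured genes were 4.78% and 7.3%, and the median log2 ratio of the isoforms was 0.02. The first of the 2 was Myh10, the non-muscle myosin heavy chain IIB. It gave 675 in the bulge sort and 5030.5 in the ORS sort, a 7.45-fold difference. Its other probe set, 17.7 and 67.6, was under the floor in the bulge sort and gave a bound of -0.23. Myh9 and Myh14, the heavy chains IIA and IIC, had log2 ratios of -0.16 and 0.46, and other Myh9 probe sets ran from -0.78 to 0.04. The second was Cnn3, the acidic calponin, with 3799 in the bulge sort and 9639 in the ORS sort, 2.54-fold higher there. All 6 probe sets of Cnn3 had this direction, with log2 ratios from -1.77 to -1.22. Within the calponins, Cnn1 and Cnn3 were thus higher in the ORS sort, and Cnn2 was not.

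Srf and its broadly expressed coactivators were measured in both sorts. Of 9 measured genes of the Srf regulator list, none was at least 2-fold higher in the ORS sort and 1 was in the bulge sort. The shares of all measured genes were 4.78% and 7.3%. When the floor was set to the 20th percentile, 1 of 10 was at least 2-fold higher in the ORS sort, against 6.01% of all measured genes. The median log2 ratio of the list was 0.19 (-0.03 after median centring). Srf itself gave 4133 in the bulge sort and 2648 in the ORS sort, a log2 ratio of 0.64, and its other probe set gave 0.76. Myocd, which encodes the smooth and cardiac muscle coactivator myocardin, was under the floor on both arrays, at 6.60 and 47.0. The broadly expressed coactivators Mrtfa (log2 ratio -0.11) and Mrtfb (0.42) differed by less than 2-fold on their brightest probe sets, while another probe set of Mrtfb gave 1.33. Klf4, a repressor of smooth muscle genes and a factor of differentiating epidermis, gave 15266 and 8379, a log2 ratio of 0.87, and its other probe set gave 1.99. The Tead family member Tead4 was at least 2.77-fold higher in the bulge sort (160 against 5.53), and Elk4 had a log2 ratio of -0.31.

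Of 17 measured genes that set the phosphorylation of the myosin light chain, 16 were less than 2-fold apart. Mylk, the myosin light chain kinase that switches smooth muscle contraction on, was the exception, and no gene of the list was 2-fold higher in the ORS sort when probe sets were averaged. A count of 1 in 17 is near the 4.78% of all measured genes, as is the 0 of 9 among the Srf regulators. Mylk gave 342 in the bulge sort and 899 in the ORS sort, 2.63-fold higher there, and another probe set gave at least 2.60-fold in the same direction. Rhob (log2 ratio 0.75), Arhgef1 (0.66) and Rnd3 (-0.58), regulators of the actin cytoskeleton, followed in size, and another probe set of Rnd3 gave -1.24. The median of the list was -0.01. The kinase gene thus had the direction of its substrate gene Myl9, while Rhoa (3989 and 3967) and Rock1 (3634 and 3661) were nearly equal.

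Further cytoskeletal genes of smooth muscle were split. Among 26 measured, 5 were at least 2-fold higher in the ORS sort and 5 in the bulge sort, with a median log2 ratio of 0.26. The shares of all measured genes were 4.78% and 7.3%. Towards the ORS sort were Aoc3, a vascular amine oxidase (at least 7.56-fold, 56.9 and 437), the mesenchymal intermediate filament Vim (7.52-fold, 792 and 5950.1) and the LIM protein Fhl1 (3.48-fold, 1949 and 6782). Towards the bulge sort were Pdlim3, a LIM protein of the actin cytoskeleton (7.67-fold, 617 and 80.5) and Synpo2, an actin-bundling protein (4.69-fold, 649 and 139). The remaining 2-fold genes, named after their values were seen, were Smtn and Pdlim7 towards ORS and Cav1, Cav2 and Nexn towards early bulge. Des, desmin of muscle, gave 94.5 and 55.9, and Lmod1, a leiomodin of smooth muscle, was under the floor on both arrays (6.32 and 6.09). The direction of Acta2 and Tagln was therefore not that of all muscle-type cytoskeletal genes.

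Most markers of dermal fibroblasts had higher signals in the ORS sort. Of 15 measured, 14 were at least 2-fold higher in the ORS sort, against 4.78% of all measured genes. On their brightest probe sets all 15 had the higher signal there, and their median log2 ratio was -3.57. Their summed signal was 8155 in the bulge sort and 67252 in the ORS sort. Lum (29.9-fold), Dpt (22.5-fold), Col6a2 (15.6-fold) and Col1a2 (13.4-fold, 1079 and 14484) had the largest ratios among those above the floor on both arrays. Another 3 of the 15 gave only bounds, among them Pdgfra, at least 12.8-fold higher in the ORS sort. Other probe sets differed from these. Their log2 ratios or bounds ran to -0.08 for Pdgfra, -0.21 for Dcn, -1.60 for Col6a2 and 0.33 for Col5a1. In the other direction they ran to -5.26 for Col3a1 and -4.55 for Col1a2. The part of such cells in the contractile gene differences was not tested.

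Markers of pericytes were counted without any contractile gene. For this list and the next, the share of all measured genes at least 2-fold higher in the ORS sort was 4.78%. Of 8 measured, Pdgfrb (7.05-fold, 59.2 and 417) and Rgs5 (2.56-fold, 125 and 319) were at least 2-fold higher in the ORS sort, while another Rgs5 probe set had the opposite sign (0.74). The count was 0 of 7 when probe sets were averaged and 1 of 5 with the floor at the 60th percentile. The shares of all measured genes were then 4.17% and 4.23%. Cspg4 (1897 and 2579), Notch3 (959 and 1103) and Mcam had log2 ratios of -0.44, -0.20 and 0.18, the last turning to -0.04 after median centring. Another Notch3 probe set gave 0.58, and Kcnj8 gave a bound of -0.43. The summed signal of the list was 3639 in the bulge sort and 5022 in the ORS sort. The median log2 ratio of these markers was -0.32, and 2 of the 10 listed were under the floor on both arrays. Of 9 measured markers of dermal papilla and dermal sheath, Prom1 (3.47-fold), Corin (at least 2.92-fold) and Col11a1 (2.59-fold) were higher in the ORS sort, and Rspo3 had a bound of -0.89. Alpl had a bound of 0.62 in the other direction, and Inhba, Wif1 and Sox18 had log2 ratios of -0.64, -0.23 and -0.02. The sheath and smooth muscle integrin Itga8, which stands in the cytoskeletal list too and is named after its value was seen, gave 266 in the bulge sort and 161 in the ORS sort. The summed signals of the papilla and sheath list were 1307 and 1933, its median log2 ratio was -0.64, and 3 of its 12 markers were under the floor on both arrays. Their part in the contractile gene differences was not tested either.

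Endothelial and skeletal muscle markers were dim. Of 5 measured endothelial markers, Tek was 4.09-fold higher in the ORS sort (70.0 and 286), and Esam and Cldn5 had log2 ratios of 0.78 and -0.63. Tek was the only one past 2-fold, against 4.78% of all measured genes towards the ORS sort. Kdr, under the floor in the bulge sort and at 76.6 in the ORS sort, gave only a bound of -0.41. With the floor at the 20th percentile, 2 of 8 endothelial markers were at least 2-fold higher in the ORS sort, against 6.01% of all measured genes. Without a floor it was 2 of 5, against 6.13%. The summed endothelial signals were 556 and 892, the median log2 ratio was -0.41, and 5 of the 10 markers were under the floor on both arrays. Of 7 measured skeletal muscle markers, 4 gave only bounds, and no ratio or bound reached 2-fold. With the floor at the 20th percentile, 2 of 11 measured were at least 2-fold higher in each sort. Of all 16376 genes measured at that floor, 984 were so in the ORS sort and 1870 in the bulge sort. With the main floor the list was led by Myod1 (a bound of -0.32), Myh8 (-0.23), Ckm (a bound of -0.22) and Actn2 (a bound of 0.12), and the median of the list was -0.02. Its summed signals were 659 and 671, and 6 of the 13 listed were under the floor on both arrays. Basal keratinocyte markers had the opposite direction from Acta2: all 12 had the higher signal in the bulge sort (11 after median centring), 4 of them by at least 2-fold. These were Col17a1 (5.20-fold), Krt14 (2.23-fold), Itga6 (2.10-fold) and Cdh1 (2.03-fold). Other Krt14 probe sets gave 3.33-fold and 5.39-fold in the same direction. The median log2 ratio was 0.75, and after median centring 1 of the 12 was still 2-fold higher. Of all measured genes, 7.3% were at least 2-fold higher in the bulge sort without centring.

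**Figure D3:**
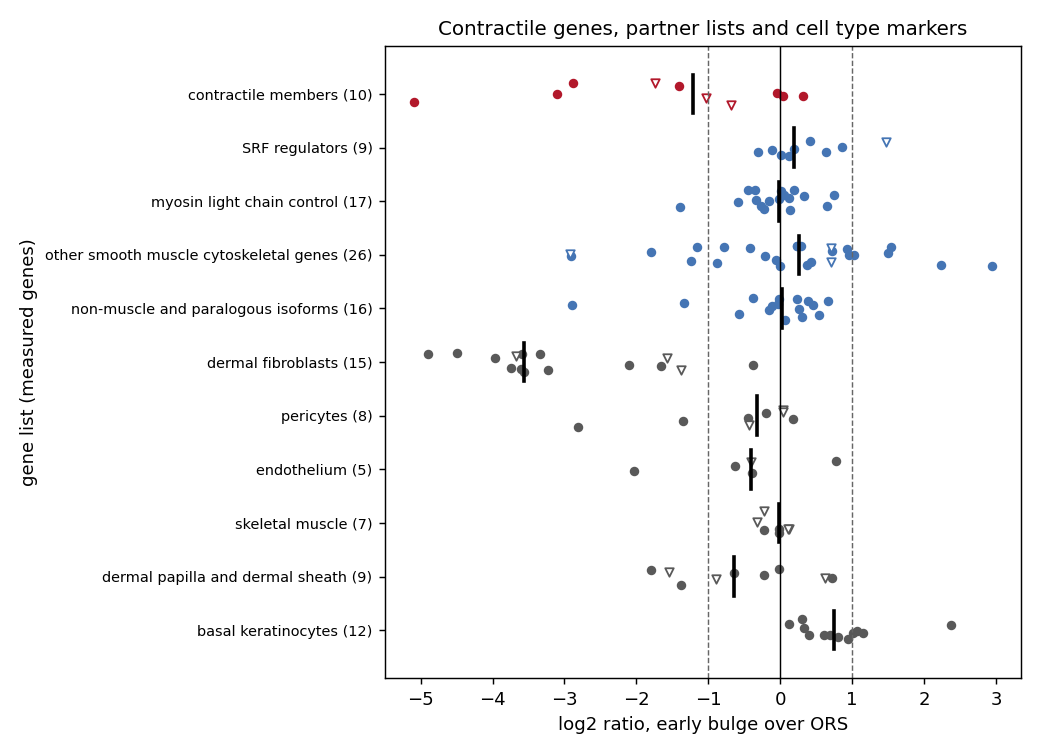
Log2 ratio of early bulge over ORS for each measured gene of the contractile list (red), the partner lists (blue) and the cell type marker lists (grey), with the number measured in brackets, open triangles for bounds, black bars for the median and dashed lines at 2-fold. The contractile genes spread from -5.09 to 0.31; dermal fibroblast markers have the lowest median (-3.57) and basal keratinocyte markers the highest (0.75).

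Other scalings, floors, filters and probe set rules were tried on each member. The ratio of Tagln ran from -5.31 to -4.50 and that of Myl9 from -3.10 to -2.70 over all settings tried. Acta2 ran from -3.32 to -3.04 except where its probe sets were averaged, dim ones included, which gave -1.01, and it was not measured without probe sets of suffix _s, _x or _a. Tpm1 was below 2-fold (-0.88) when its probe sets were averaged. Tpm2 and Cald1 ran across 0, from -0.18 to 0.09 and from -0.26 to 0.21.

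**Figure D4:**
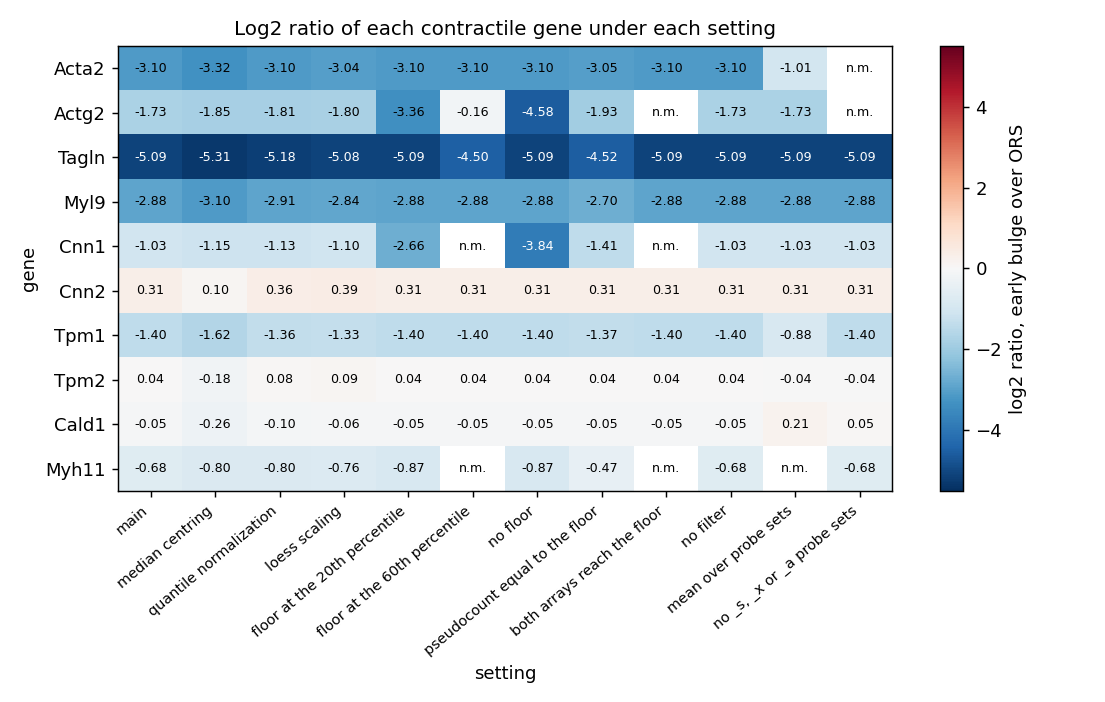
Log2 ratio of early bulge over ORS of each contractile gene (vertical axis) under each setting (horizontal axis), with the value written in the cell, blue for a higher signal in the ORS sort, and n.m. where the gene was not measured. Tagln and Myl9 stay strongly blue in every column, and Cnn2 stays between 0.10 and 0.39.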

How the data were processed

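Signal intensity on a linear scale was deposited for every probe set. Per the submitters' processing notes, the authors computed it with MAS5 in Affymetrix Expression Console (version not stated). With the top and bottom 2% trimmed, the mean was 500.0 on either array, as after scaling to a common target. MAS5 corrects for mismatch probes, which leaves low signals noisy. No probe-level data were used here.

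Probe sets (45101, of which 64 were controls) were named by the platform annotation; 34945 non-control probe sets had 1 symbol, 932 probe sets had several and 9160 non-control ones had none. A gene was represented by its brightest probe set, by mean log2 signal, and a gene counted as measured where it reached the floor on either array. Python 3.11.15, pandas 2.3.3 and statsmodels 0.14.6 were used, and the procedure was tested on simulated data. Alternatives were 3 scalings (median, quantile, loess with span 0.4), other floors, a pseudocount, filters, probe set rules and fold sizes.

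The members and lists were chosen with earlier results of these data known. All members were named, and, of each partner or marker list, up to 4 measured genes with the largest absolute log2 ratio, with Actb, Actg1, Myh9, Cnn3, Tagln2, Srf, Myocd, Mrtfa, Mrtfb, Mylk, Sox9 and Krt14; other genes were named after their values were seen. The lists held 10 Srf regulator, 18 light chain, 30 cytoskeletal and 18 isoform genes; Rock2 and Fbn1 are among those not analysed here. The search for CATTCC and for near matches was chosen after seeing the data. Precision is limited by having 1 array per population.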

Additional observations from a re-analysis of the deposited data

How the results depend on the processing

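Of 10 contractile genes, 6 were at least 2-fold higher in the ORS sort, and 4 to 6 under the settings that kept the 2-fold size: 4 with the floor at the 60th percentile, where 8 were measured, 4 with both arrays above the floor and 4 without _s, _x or _a probe sets, and 5 with averaged probe sets. None was 2-fold higher in the bulge sort under any setting tried. At 4-fold, 3 genes and 3 probe sets were called, and the share of all genes higher in the ORS sort was 1.32%; at 1.5-fold this share was 12.8%, and with median centring 7.71%. The median log2 ratio of the members was -2.03 with the floor at the 20th percentile, -0.78 at the 60th, -2.14 without a floor and -0.86 without _s, _x or _a probe sets. Actg2 and Cnn1, under the floor in the bulge sort, had ratios of -3.36 and -2.66 with the lower floor and of -4.58 and -3.84 without one. Their size is limited by signal over background and not only by the number of arrays. No paired analysis was possible because each population was measured on 1 array.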
